A study of Mus musculus with 2 samples.

Results

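CTCF bound 4864 places in the liver of day 14.5 mouse embryos that lay outside every annotated gene and far from the start of any protein-coding gene, out of 50909 peaks in the optimal list of the study. The members are called far intergenic peaks here and were chosen by position alone. The summit of each lay outside every gene of the GENCODE vM21 annotation, over 1 kb from every transcript start and from every 3' end of a protein-coding gene, and over 50 kb from every start of a protein-coding transcript. All positions are on mouse build mm10. The members made up 9.56% of the 50888 optimal peaks on assembled chromosomes, against 22.0% for intergenic peaks within 50 kb of a coding start, 45.0% for peaks inside genes and 22.0% for promoter peaks.

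CTCF is a zinc finger protein that reads a long, asymmetric DNA motif. A cohesin ring that extrudes a chromatin loop is held where it meets CTCF from the side of the protein's N terminus, so the strand of the motif sets the side on which a loop is anchored. Sites far from genes are known as boundaries of topological domains and as anchors inside gene deserts, the long stretches of sequence without coding genes that often flank regulators of development. At this stage the liver holds hepatoblasts together with a large population of red blood cell precursors.

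The chromatin immunoprecipitation with sequencing (ChIP-seq) was made with an antibody to CTCF on B6NCrl mouse livers, which were pulverised and pooled over several dissections and over male and female embryos. There were 2 libraries, replicate 1 and replicate 2, both of 1 group with no treatment and no altered allele. They share 1 pooled biosample, so their spread covers library making and sequencing and not animals, and the labels' tissue could not be checked against expression markers in binding data. The optimal list comes from both replicates together and is a single value. Errors therefore come from the 50909 strongest peaks of each replicate, which held 4396 far intergenic peaks in replicate 1 and 5228 in replicate 2, a share of 9.46% ± 1.15 (SD, n = 2). The number of reads is unknown. Signals have the peak caller's own relative scale and were compared only within a list. Shares carry 95% Wilson intervals, which cover counting error only, and no test of a difference between classes of peaks was made, because peaks of 1 library are not replicates.

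The strongest far intergenic peak shows what such a site looks like. It lay at chr12:86795835-86796264, 61.7 kb downstream of the start of Lrrc74a, and its 201 bases around the summit are printed on the plus strand (chr12:86795944-86796144). Capitals mark the matches to the core CTCF motif, a word of 14 bases searched on both strands with at most 2 mismatches.
Lrrc74a peak: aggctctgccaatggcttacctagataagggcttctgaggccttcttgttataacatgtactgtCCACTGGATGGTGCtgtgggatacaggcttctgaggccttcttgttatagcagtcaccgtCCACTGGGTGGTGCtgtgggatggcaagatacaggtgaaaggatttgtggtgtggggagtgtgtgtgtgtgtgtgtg
This peak held 2 matches on the same strand, each followed by the same short run of bases. Of the 4864 members, 237 (4.87%, 95% interval 4.30 to 5.51%) held 2 or more matches within 100 bp of the summit, and 4.81% of all optimal peaks did.

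The next strongest members are shown in motif orientation, with 20 bases on each side of the best match in capitals, to show how the core varied at sites of high signal.
Zxdb, chrX:94865713-94865766, plus strand: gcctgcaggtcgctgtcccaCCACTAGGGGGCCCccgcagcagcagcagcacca
Ppp6c, chr2:39373224-39373277, minus strand: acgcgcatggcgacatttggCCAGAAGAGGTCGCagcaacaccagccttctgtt
Caln1, chr5:130853510-130853563, minus strand: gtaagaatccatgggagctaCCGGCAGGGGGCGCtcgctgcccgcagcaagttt
Slc38a4, chr15:96936888-96936941, plus strand: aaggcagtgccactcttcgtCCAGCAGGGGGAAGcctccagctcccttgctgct
Npvf, chr6:50937288-50937341, minus strand: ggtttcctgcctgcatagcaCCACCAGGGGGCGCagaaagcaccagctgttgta
All 10 of the strongest members held a match, and 2 of the 10 matched the motif with no mismatch: the peaks near Npvf and Kif2a.

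Of the 5 members farthest from coding starts, 4 are shown in the same way, each with a match at a weaker signal. The sequence of the farthest, near Pik3c3 and 2195 kb away, is not shown.
Pcdh20, chr14:90433313-90433366, plus strand: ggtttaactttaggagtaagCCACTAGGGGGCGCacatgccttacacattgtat
Sel1l, chr12:93550032-93550085, plus strand: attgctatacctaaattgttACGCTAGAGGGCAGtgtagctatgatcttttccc
B3galt2, chr1:141961915-141961968, plus strand: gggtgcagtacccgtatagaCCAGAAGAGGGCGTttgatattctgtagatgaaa
Hace1, chr10:47285878-47285931, plus strand: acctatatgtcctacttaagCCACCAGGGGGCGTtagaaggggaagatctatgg
The nearest coding starts lay 1962 kb from the summit for Pcdh20, 1701 kb for Sel1l, 1679 kb for B3galt2 and 1613 kb for Hace1.

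Most members held the core motif. Within 50 bp of the summit, 3986 of the 4864 (81.9%, 95% interval 80.8 to 83.0%) had a match, and 71.5% of all optimal peaks did. The share was 79.9% ± 3.39 (SD, n = 2) over the replicates, at 77.5% in replicate 1 and 82.2% in replicate 2. In windows moved by 1 kb to either side of the members' summits, 2.53% (2.24 to 2.86%) held a match. Intergenic peaks within 50 kb of a coding start had a match in 78.8%, with 74.97% in replicate 1 and 80.05% in replicate 2. Within each library the members' share was the higher, by 2.49 points in replicate 1 and 2.20 in replicate 2 (2.34 ± 0.203, SD, n = 2), so this small gap was larger than its own spread. The gap was not seen at the edge of the rule. There, 79.8% of the 904 intergenic peaks 40 to 50 kb from a coding start held a match, and 79.4% of the 671 members 50 to 60 kb away did. Promoter peaks had a match in 50.8%, or 50.5% ± 8.19 (SD, n = 2). The median distance from the middle of a member's best match to the summit was 7 bp.

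The quality of the match went with the signal. The median signal was 120 in the 682 members whose match had no mismatch, 72.7 in the 1747 with 1 mismatch, 49.6 in the 1557 with 2, and 36.4 in the 878 without a match. Both replicates gave the same order, with 1.70, 0.994, 0.726 and 0.568 times the median of its list in replicate 1 and 1.86, 1.17, 0.798 and 0.575 times in replicate 2. Matches with no mismatch made up 14.02% (13.1 to 15.0%) of members, and 10.4% of all optimal peaks had one. This was not particular to the members, since 13.4% of the intergenic peaks closer to coding starts had one. The Wilson intervals of both intergenic classes overlapped. The share was 10.5% for peaks inside genes and 5.59% for promoter peaks. Among the members without a match, 615 had 3 mismatches to the motif, 77.2% were in the conservative list, and 61.4% were strong peaks of both replicates, within the strongest 50909 of each.

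The motif share of weak members was higher than that of other peaks of like signal. Among the weakest quintile of all optimal peaks, with signals up to 27.7, 68.1% (65.0 to 71.0%) of the 933 far intergenic peaks held a match, against 52.7% (50.3 to 55.0%) of the intergenic peaks closer to coding starts and 45.7% of all peaks. In the strongest quintile the shares were 91.9% (89.5 to 93.8%), 91.5% and 89.2%, and those of both intergenic classes lay within each other's intervals. The members were thinly spread over that strongest quintile, which held 641 of them (13.2%) but 25.5% of the intergenic peaks closer to coding starts. Of the 1000 strongest peaks of the list, 38 (3.80%) were far intergenic.

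A word of 12 bases was repeated in many members. Of the 3986 matches, 521 (13.1%, 12.1 to 14.2%) began with CCAGAAGAGGGC, and of all matches in optimal peaks 15.8% did. All 521 lay in repeat-masked sequence, while 11.3% of the other matches in members did. The commonest base at each position is shown to compare flanks. It was taken over 511 of the 521 members with the word and 3309 of the 3465 other members with a match.
With the word: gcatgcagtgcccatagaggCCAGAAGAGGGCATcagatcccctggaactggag
Without the word: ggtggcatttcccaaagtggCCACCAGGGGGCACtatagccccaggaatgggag
With the word, the commonest base was shared by over 50% of these members at 32 of the 40 flanking positions. Without it, this was so at 0 of the 40. Rodent B2 elements, a family of short retrotransposons, are known to carry a CTCF motif, but repeat families were not annotated here. Members with the word had a median signal of 46.0, against 72.6 for the other members with a match, and the order was the same in replicate 1 (25.3 and 38.8) and replicate 2 (20.4 and 36.4). In intergenic peaks closer to coding starts the word made up 17.5% of matches. Over the replicates the shares were 13.2% ± 0.607 (SD, n = 2) in far intergenic peaks and 17.5% ± 1.69 (SD, n = 2) closer to coding starts. The strongest members with the word were peaks near Glrp1 and Scml4.
Glrp1, chr1:88562511-88562564, plus strand: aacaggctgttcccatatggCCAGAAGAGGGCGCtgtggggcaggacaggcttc
Scml4, chr10:42990077-42990130, minus strand: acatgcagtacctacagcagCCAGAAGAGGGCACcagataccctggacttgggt
Of all member summits, 986 (20.3%, 19.2 to 21.4%) fell on repeat-masked bases, against 22.5% of all optimal summits and 26.5% of those in intergenic sequence closer to coding starts.

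The base composition of the members was close to that of the intergenic peaks nearer to coding starts. Median GC content within 100 bp of the summit was 48.3%, or 48.3% ± 2.11 (SD, n = 2) over the replicates, against 48.8% for the other intergenic class and 58.2% for promoter peaks. A CpG, the dinucleotide whose methylation can block CTCF at some sites, stood inside 1410 of the 3986 matches (35.4%, 33.9 to 36.9%). It stood inside 36.7% of all matches in optimal peaks and 52.6% of those in promoter peaks.

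Signal was lower in the far intergenic peaks than in the rest of the list. Their median was 59.6, with a range of 5.36 to 617, against 88.7 in intergenic peaks within 50 kb of a coding start, 66.2 inside genes, 57.3 at promoters and 100.4 at coding gene ends. Relative to the median of its list, the far intergenic median was 0.928 in replicate 1 and 0.876 in replicate 2 (0.902 ± 0.0374, SD, n = 2), and that of the closer intergenic peaks was 1.34 and 1.29 (1.32 ± 0.0324, SD, n = 2). The gap between both intergenic classes was thus larger than the spread between the replicates. Set against all other peaks, the ratio of medians was 0.865, with 0.919 in replicate 1 and 0.858 in replicate 2. That direction depends on the distance in the rule, since with 20 kb in place of 50 kb the ratio was 1.03. Just outside the rule, the 904 intergenic peaks 40 to 50 kb from a coding start had a median signal of 79.8, and just inside it the 671 members 50 to 60 kb away had 79.9.

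**Figure D1:**
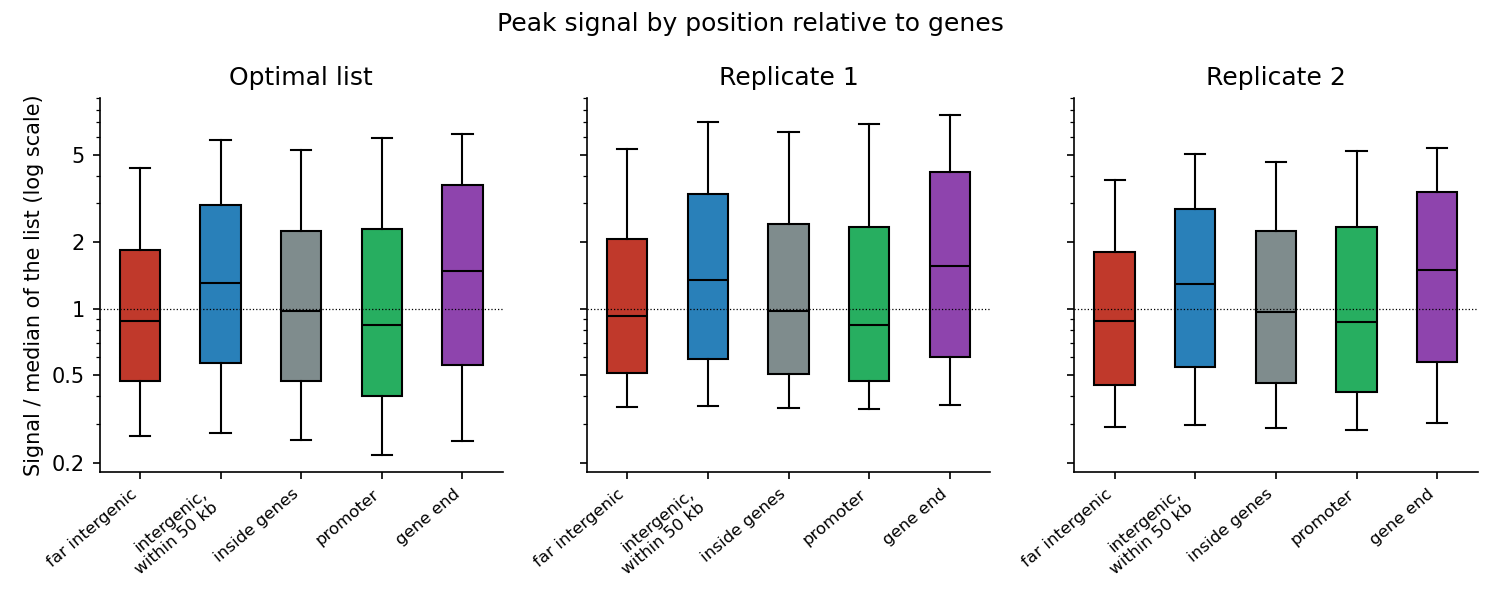
Signal of each peak divided by the median of its list, on a log axis, by position relative to genes, in the optimal list and in the 50909 strongest peaks of each replicate. Boxes span the quartiles with the median as a line, and whiskers run from the 5th to the 95th percentile; the far intergenic medians lie at 0.877, 0.928 and 0.876, below those of intergenic peaks within 50 kb of a coding start in all 3 panels.

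Between the nearest and the farthest class of distance from coding starts, signal and motif share differed in opposite directions. The median signal was 69.7 in the 2297 members 50 to 100 kb from a coding start, 59.2 in the 1425 at 100 to 200 kb, 50.3 in the 927 at 200 to 500 kb and 38.9 in the 215 beyond 500 kb. Both replicates gave that order: relative to the list median, the nearest class stood at 1.03 ± 0.000213 (SD, n = 2) and the farthest at 0.595 ± 0.0503 (SD, n = 2). Over the 4864 members, Spearman's rho of distance with signal was -0.153, a description across sites of the same libraries. The share with a motif match, in contrast, was 81.1% (79.4 to 82.6%) in the nearest class and 88.8% (83.9 to 92.4%) in the farthest. Between them it was 81.7% at 100 to 200 kb and 83.0% at 200 to 500 kb. From nearest to farthest the shares were 75.6, 77.7, 80.4 and 86.9% in replicate 1. In replicate 2 they were 81.8, 82.6, 81.8 and 85.6%, and so did not rise at each step.

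The difference in motif share between these end classes was 7.77 points, with 11.3 in replicate 1 and 3.77 in replicate 2 (7.52 ± 5.31, SD, n = 2), so its size was not much larger than the spread. With 3 mismatches allowed it was 2.00 points. Members with signals at or below the list's median showed most of it: 72.6% (69.9 to 75.1%) of the 1134 at 50 to 100 kb and 87.3% (81.3 to 91.5%) of the 165 beyond 500 kb held a match. Above the median the shares were 89.3% (87.4 to 91.0%) of 1163 and 94.0% (83.8 to 97.9%) of 50. Agreement between the libraries was lowest at the largest distance. Presence among the strongest in both replicates was 79.1% for the members at 50 to 100 kb and 57.7% (51.0 to 64.1%) for those beyond 500 kb.

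**Figure D2:**
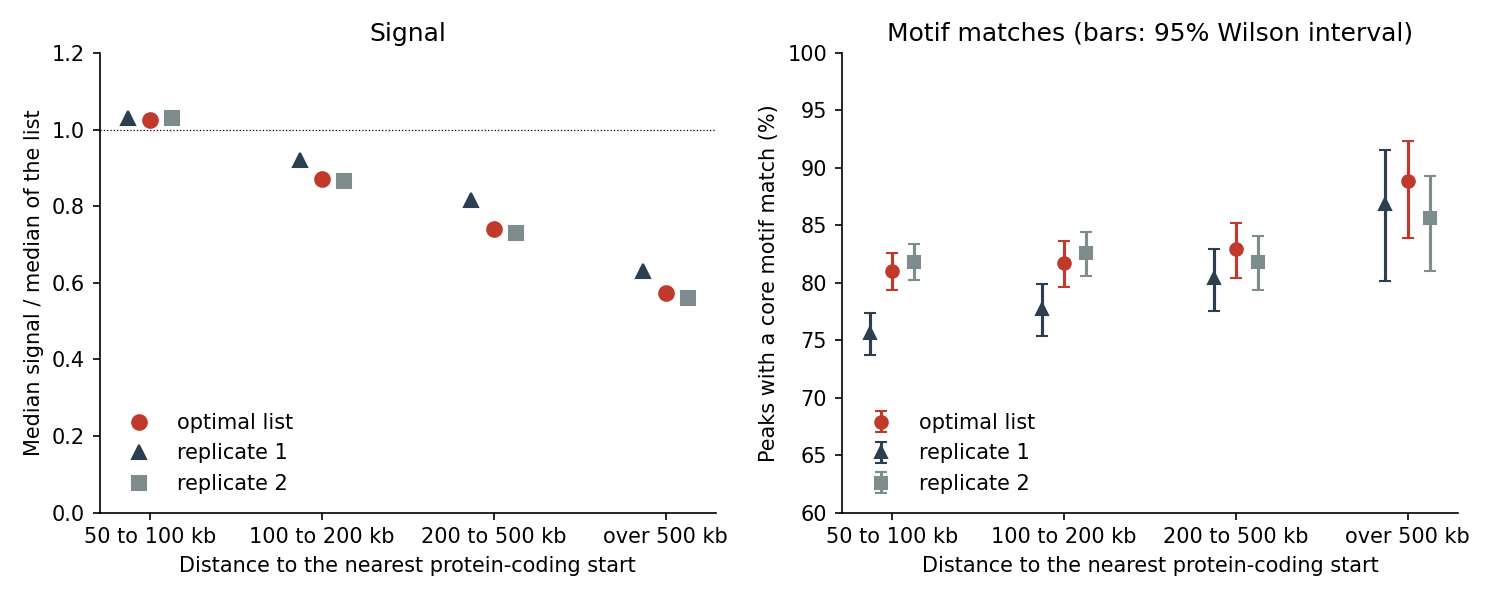
Left, median signal of the far intergenic peaks divided by the median of the list, and right, share of these peaks with a core motif match, by distance to the nearest protein-coding start, in the optimal list and in each replicate. Median signal goes from 1.03 to 0.573 times the list median in the optimal list while the motif share goes from 81.1 to 88.8%; the right axis starts at 60%.

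Presence in the conservative list and in both replicates together was close to that of all peaks, while presence in each replicate was not. In the conservative list and in both replicates together, the members' share was below that of intergenic peaks closer to coding starts. In the conservative list, 4146 (85.2%, 84.2 to 86.2%) had a summit within 100 bp, and 86.4% of all optimal peaks did. Of the intergenic peaks closer to coding starts, 89.6% (89.0 to 90.1%) did. Of the members, 3679 (75.6%, 74.4 to 76.8%) were among the strongest 50909 peaks of both replicates, where 76.7% of all optimal peaks were. The closer intergenic peaks had 81.9% (81.2 to 82.6%) there. Among the strongest peaks of replicate 1 were 80.5% (79.4 to 81.6%) of the members, below the 84.8% of all optimal peaks and the 86.5% of closer intergenic peaks. Among those of replicate 2 were 91.4% (90.5 to 92.1%), above the 87.3% of all optimal peaks. This was not particular to the members, since the closer intergenic peaks had 92.2% (91.7 to 92.7%). Over the 4602 members with a peak anywhere in both replicates' full lists, Spearman's rho of the signals was 0.785.

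The strongest members had signals of 519 to 617, all 10 were in the conservative list, and none had its summit on a repeat-masked base. The Lrrc74a peak ranked 39 in the optimal list and had 10.9 times the median signal of its list in replicate 1 and 7.63 times in replicate 2. The peak near Zxdb, which encodes an X-linked zinc finger protein, lay at chrX:94865485-94865929 and stood at 10.9 and 7.32 times. A peak 147 kb upstream of Ppp6c, the catalytic subunit of a protein phosphatase, lay at chr2:39373073-39373465 and stood at 11.0 and 7.08 times. Each of these signals was a large multiple of the median in both libraries, with the larger in replicate 1.

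The Caln1 peak, named for a neuronal calcium-binding protein, lay 405 kb from the start of that gene at chr5:130853375-130853745, with 10.6 and 6.94 times the replicate medians. A peak 83.0 kb downstream of the start of Slc38a4, an amino acid transporter of the liver and placenta, had 9.99 and 7.05 times (chr15:96936734-96937093). The other 5 lay near Npvf, Mvb12b, Fam180a, Zmynd8 and Kif2a, at 53.9 to 283 kb from their starts, with a mean over the replicates of 7.89 to 8.28 times the median. All 10 ranked 367 or better in each replicate.

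The 5 members farthest from coding starts had 0.255 to 1.56 times the median signal of each library's list. The farthest lay on chromosome 18 at 28077768 to 28078083, 2195 kb from the start of Pik3c3, which encodes a lipid kinase of autophagy, and had 1.13 times the median signal in replicate 1 and 0.446 times in replicate 2. The Pcdh20 peak, named for a protocadherin, had 1.11 and 1.56 times (chr14:90433182-90433497). The Sel1l peak had 0.315 and 1.42 times, and the B3galt2 peak, whose match began with the repeated word, had 0.410 and 1.29 times. The Hace1 peak had 0.255 and 0.419 times. Replicate 2 was higher for 4 of the 5 and replicate 1 for the Pik3c3 peak. All 5 were in the conservative list, and their nearest other peaks lay 397 to 1252 kb away.

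Far intergenic sequence was bound sparsely. Sequence in which a summit would meet the rule came to 940 Mb, 35.5% of the assembled chromosomes outside gaps. It held 5.17 peaks per Mb, or 5.12 ± 0.626 (SD, n = 2) over the replicates, while the rest of the genome held 26.95 peaks per Mb. On autosomes alone the density was 5.86 per Mb. Among autosomes it ran from 3.97 per Mb on chromosome 14 to 8.09 on chromosome 11, with a Spearman's rho of 0.639 with the density of protein-coding genes over the 19 autosomes, which share both libraries. On chromosome X it was 2.42 per Mb, with 1.83 in replicate 1 and 2.82 in replicate 2, and the median signal of its 180 members was 47.8. The embryos were of both sexes, and copy number of X cannot be told apart from occupancy here. Chromosome Y had 66.6 Mb of such sequence and no peak of any class in the optimal list.

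Members stood farther from other peaks than the rest of the list did. The median distance to the nearest other peak was 18.5 kb (18.2 ± 1.70 kb, SD, n = 2), against 5.67 kb in intergenic sequence closer to coding starts. The rule bears on this distance, since it leaves out sequence inside genes and near coding starts, where most peaks lay. With 20 kb in the rule the members' median was 11.2 kb, and with 100 kb it was 28.9 kb. For 690 members (14.2%, 13.2 to 15.2%) no other peak lay within 100 kb, which was so for 3.19% of all optimal peaks. The median distance was 11.9 kb for members 50 to 100 kb from a coding start and 198 kb for those beyond 500 kb. The most isolated member, chosen after its value was seen, lay at chrX:122826120-122826435, 6478 kb from any other peak and nearest to Gm17521. It had a signal of 16.3, no peak within 100 bp in the list of replicate 1, and no counterpart in the conservative list.

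**Figure D3:**
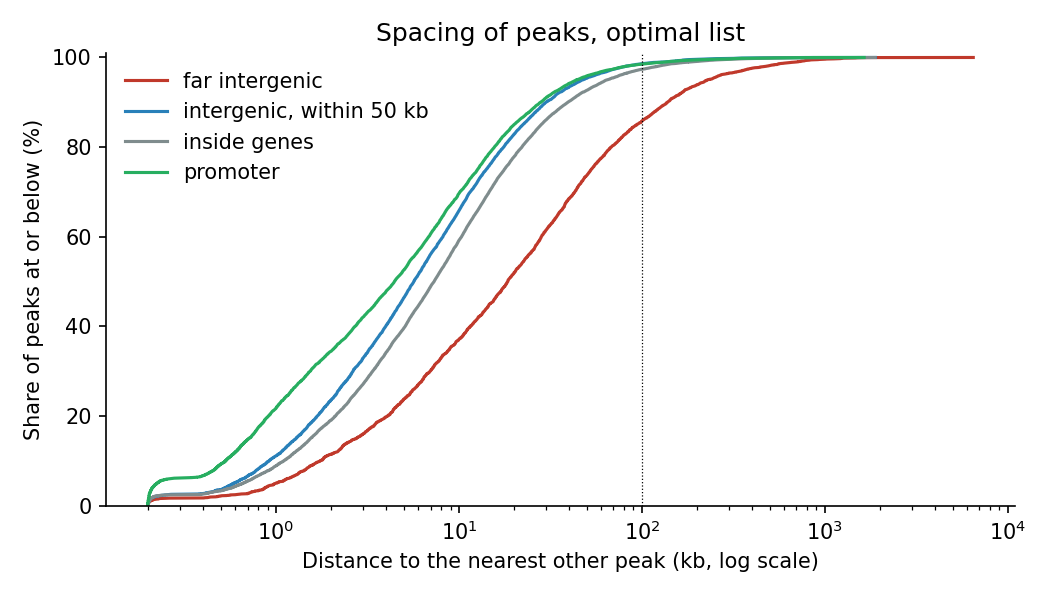
Cumulative share of optimal peaks by distance to the nearest other optimal peak, on a log axis, for 4 classes of position. The dotted line marks 100 kb; 14.2% of the far intergenic peaks lie to the right of it, against 1.41% of intergenic peaks within 50 kb of a coding start.

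Longer gaps between coding genes held fewer members per length. The space between neighbouring protein-coding genes was divided into intervals, of which 1789 held at least 1 member and 37 held 10 or more. Intervals of 100 to 500 kb held 6.04 members per Mb, those of 500 kb to 1 Mb held 4.01, those of 1 to 2 Mb held 2.09, and those over 2 Mb held 0.988, all without chromosome Y. The order was this although longer intervals have more of their sequence beyond 50 kb from a gene. Of the 74 intervals over 2 Mb, 8 (10.8%, 5.58 to 19.9%) held no member. The longest, between Tenm3 and Aga on chromosome 8, spanned 4668 kb and held 2 members among 6 peaks.

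The interval between Tmem132b and Tmem132c, which encode transmembrane proteins of the same family, held 17 members, 14 in replicate 1 and 18 in replicate 2. It spans 1449 kb (chr5:125792584-127241807). Its members had signals of 19.7 to 56.8, and 11 of its 16 matches were on the minus strand. The strongest, at chr5:126623289-126623604, had 0.902 and 0.813 times the replicate medians. No member of this interval reached the median of the optimal list, which was 68.0.

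The interval between Zfp507 and Tshz3, the latter a zinc finger transcription factor of development, also held 17 members, with 14 and 19 in the replicates (chr7:35803004-36698117). Its strongest member, at chr7:35901904-35902157, had a signal of 274 and 5.10 and 3.20 times the replicate medians, with 3 mismatches to the motif and so no match. Between Matn1, a cartilage matrix protein, and Ptpru, a receptor tyrosine phosphatase, 16 members were found, with 15 and 16 in the replicates (chr4:130955476-131768456). The strongest there, at chr4:131409884-131410127, had 4.51 and 2.40 times the medians and also 3 mismatches. In these 2 intervals the members reached higher signals than between the Tmem132 genes, and the strongest member of each lacked a match.

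**Figure D4:**
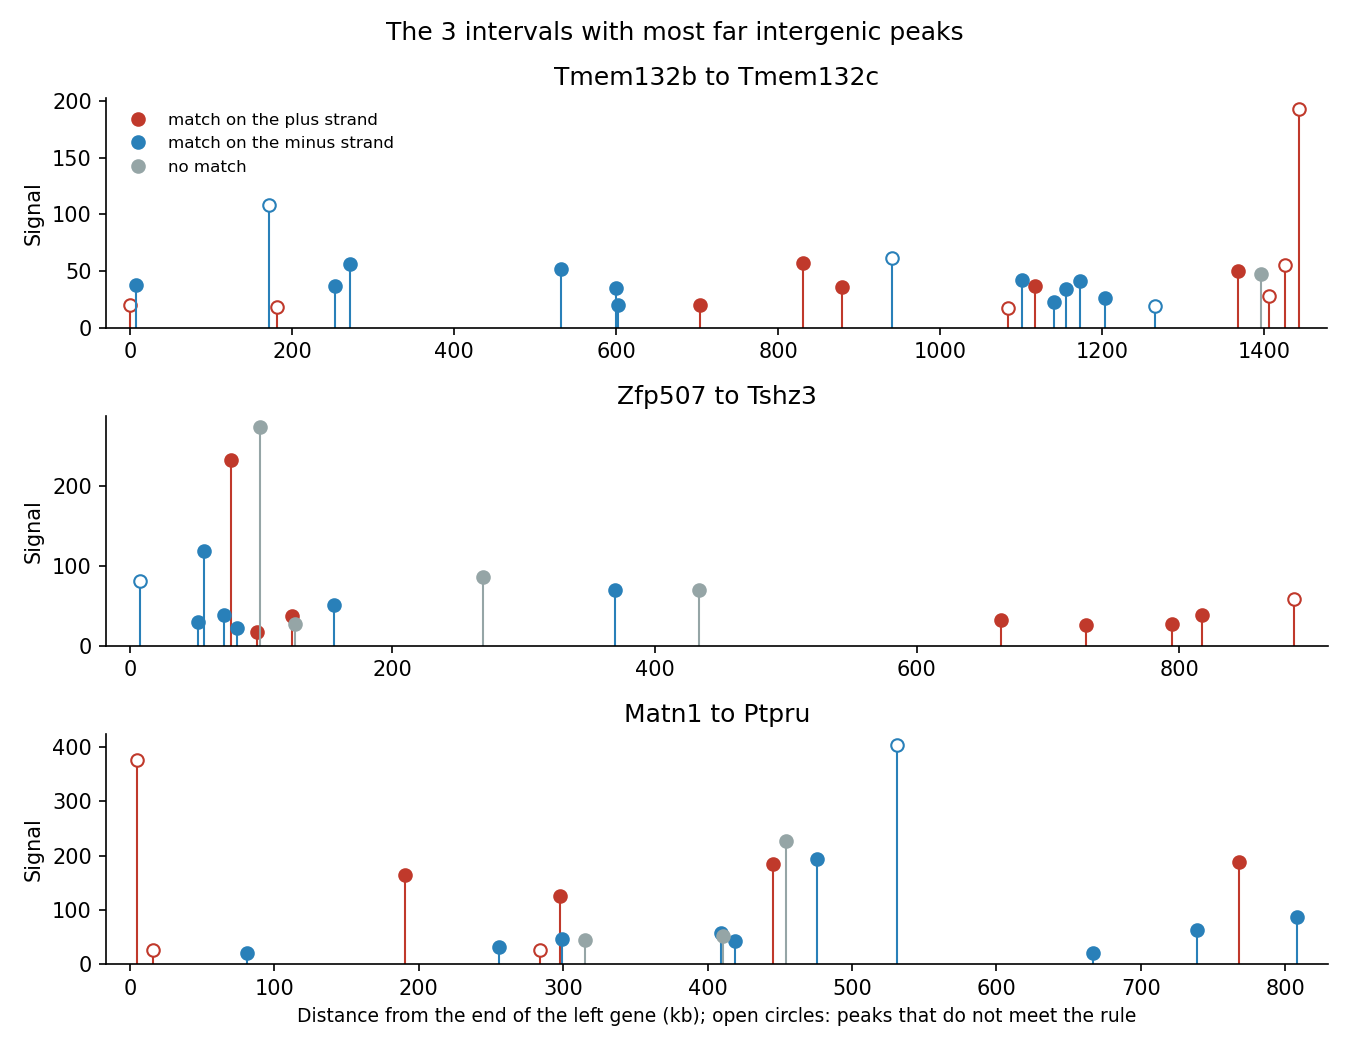
Peaks of the optimal list in the 3 intervals between protein-coding genes that held most far intergenic peaks, by distance in kb from the end of the left gene (horizontal) and signal (vertical). Filled circles are far intergenic peaks, 17, 17 and 16 of them, open circles are other peaks, and colour gives the strand of the motif match.

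Over 50% of the members' motifs pointed into the interval between genes. The share of matches on the plus strand was 58.2% (54.6 to 61.7%) in the first of 5 equal parts of the interval, counted in the direction of rising position, then 54.8%, 53.1% and 46.8%, and 41.7% (38.0 to 45.5%) in the last. The end parts had 58.0% and 42.5% in replicate 1 and 59.4% and 42.6% in replicate 2, so the gap between the end parts was larger than the difference between the libraries. Counted together, 2151 of 3968 matches (54.2%, 52.7 to 55.8%) pointed to the middle of their interval, and 52.1% of all matches between coding genes did. The share was 54.0% ± 0.124 (SD, n = 2) over the replicates.

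The share was higher in the outer parts of long intervals. In the first and last of the 5 parts of intervals of 500 kb or more, 489 of 803 matches (60.9%, 57.5 to 64.2%) pointed to the middle, with 61.4% in replicate 1 and 61.3% in replicate 2. In the middle part of all intervals the share was 48.4% (45.2 to 51.7%). Intergenic peaks within 50 kb of a coding start had 53.3% (52.2 to 54.3%) over all intervals, and this Wilson interval overlaps that of the members. In the outer parts of intervals of 500 kb or more, 54.7% (49.2 to 60.1%) of their 316 matches pointed to the middle. That Wilson interval also overlaps the members' interval there, and the replicates gave 53.8% and 53.7%. Seen from the genes, 46.4% (44.8 to 47.9%) of the members' matches pointed toward the nearest coding start. Rank within the interval did not give the inward direction. In intervals with 2 or more matches, the leftmost was on the plus strand in 47.4% (44.2 to 50.6%) of 933 and the rightmost in 56.5% (53.3 to 59.6%). The Wilson interval of the leftmost share includes 50%. A rightmost match on the plus strand points away from the other matches, so over 50% of the rightmost matches pointed outward.

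**Figure D5:**
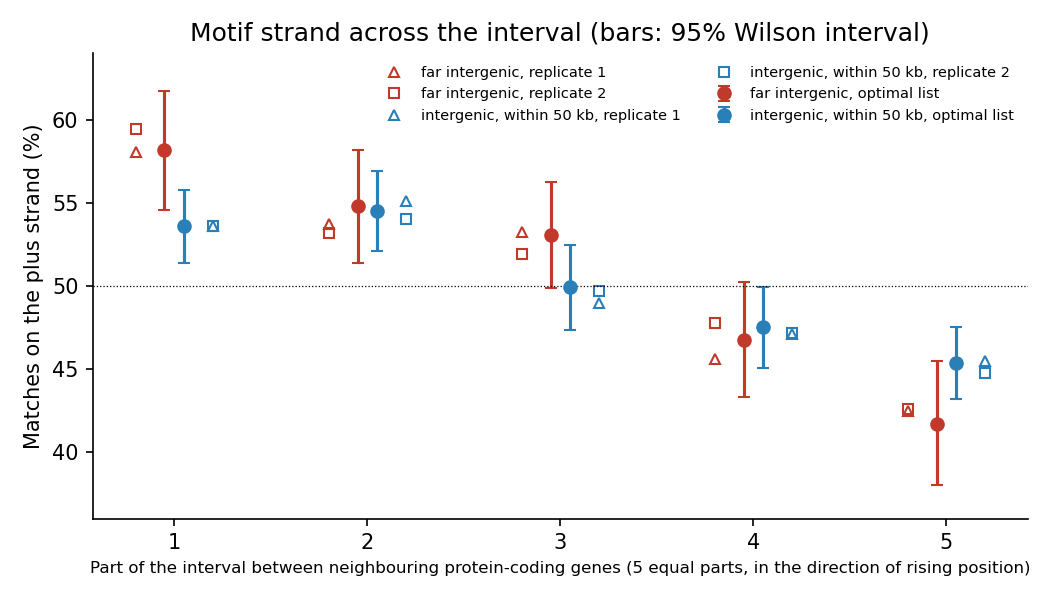
Share of core motif matches on the plus strand (vertical) by part of the interval between neighbouring protein-coding genes (horizontal, 5 equal parts), for far intergenic peaks and for intergenic peaks within 50 kb of a coding start. Filled circles with 95% Wilson intervals are the optimal list and open symbols are the replicates; the far intergenic share goes from 58.2% in the first part to 41.7% in the last.

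At 20 kb to 1 Mb the convergent share was lower among neighbouring members than among other neighbouring peaks. A pair is convergent when the motifs of 2 consecutive peaks point toward each other, the arrangement known from the anchors of most CTCF loops. Among consecutive members 20 kb to 1 Mb apart, 215 of 1068 pairs (20.1%, 17.8 to 22.6%) were convergent, and 26.5% of all such pairs in the list were. In the replicates the share was 20.5% and 19.2% for members, and 27.3% and 27.4% for pairs in which neither peak was far intergenic. For pairs of intergenic peaks within 50 kb of a coding start it was 27.2% (24.3 to 30.3%) of 845, with 25.6% and 26.1% in the replicates. Pairs on the same strand made up 56.8% (53.8 to 59.8%) of the members' pairs and 49.8% of pairs without a member. At 100 kb to 1 Mb the convergent share was 23.6% (19.7 to 28.0%) of 394 members' pairs, against 32.9% (30.6 to 35.3%) of pairs without a member. The 121 pairs of the closer intergenic class at that distance had 31.4% (23.8 to 40.1%), which overlaps the members' interval, and they gave 23.3% in replicate 1 and 32.1% in replicate 2 where the members gave 23.5% and 22.3%. Against that class the members' share at 100 kb to 1 Mb was thus lower in replicate 2 and not in replicate 1. At under 20 kb it was 20.02% (17.5 to 22.8%) and 20.6% (19.9 to 21.2%), which lay within each other's intervals. Since only consecutive members were paired, a member's partner across a peak of another class was not counted.

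The starts of genes that do not code for protein lay at a median of 31.0 kb from the members, against 21.7 kb from the intergenic peaks closer to coding starts. For 4354 members (89.5%) such a start was closer than any coding start, and for 38.2% of the closer intergenic peaks. The rule bears on these shares, since it keeps coding starts 50 kb away and other starts only 1 kb. The nearest was a lincRNA, a long intergenic noncoding RNA, for 33.4% of members and a processed pseudogene for 32.9%. Within 10 kb of such a start lay 950 members (19.5%, 18.4 to 20.7%), fewer than the 26.9% (26.1 to 27.8%) of closer intergenic peaks. The median signal was 65.1 for these members against 59.1 for the other members, and 88.2 against 88.8 in the closer intergenic class.

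Members were the far neighbours of 2185 of 21924 protein-coding genes, 9.97%. Of 23 regulators known to lie beside gene deserts, 17 were the nearest coding gene of at least 1 member, with 57 members in all, and since the list was chosen for its deserts this count is no independent evidence. Of these genes, Tbx3, a T-box factor of limb and heart, had 8 members, Bmp2, a signalling ligand, had 7, and Sox9, a factor of cartilage and testis, had 6, as did Sall1, a zinc finger factor of the kidney. The strongest member of Tbx3 lay 70.3 kb downstream of its start at chr5:119741195-119741434, matched the motif with no mismatch and had 4.80 and 3.44 times the replicate medians. That of Sall1, also with no mismatch, lay 528 kb upstream at chr8:89571895-89572126 and had 4.86 and 2.77 times. Genes of the list with none included Shh, Hoxd13, Irx2 and Nr2f2. The median signal of these 57 members was 43.7, against 59.6 over all members, and 50 of them (87.7%) held a match, against 81.9%.

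The interval between Kcnj2 and Sox9, a desert known for the long-range control of Sox9, held 13 members among 14 peaks over 1705 kb (chr11:111076822-112782223). The strongest member nearest to Sox9 lay 715 kb upstream of its start and had 1.05 and 1.04 times the replicate medians. Between Med13l and Tbx3 lay 12 members, and between Sall1 and Tox3 all 9 peaks were members.

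Genes of the blood and of the hepatocyte had members too. By the rule, a gene can have a member only where sequence over 50 kb from every coding start is nearest to it. The shares of genes below therefore depend on the empty sequence around a gene, which was not matched. The lists were chosen with earlier results of these data known, so the shares are no independent evidence. Of 18 blood genes, 7 (38.9%) had a member, beside 9.97% of all coding genes, and 14 of their 22 members (63.6%) held a match, beside 81.9% of all members. Bcl11a, a repressor of embryonic globin genes, had 6, Runx1, a factor of blood stem cells, and Sox6, a partner of Bcl11a in red cell precursors, had 4 each, and Kit, a stem cell receptor, had 3. The strongest lay 209 kb downstream of the start of Sox6 at chr7:115453372-115453623, with 4.49 and 2.55 times the replicate medians. Of 15 hepatocyte genes, 5 (33.3%) had a member, and 16 of their 18 members (88.9%) held a match. Foxa2, a forkhead factor of endoderm and liver, had 10, Prox1, a homeobox factor of hepatoblasts, had 4, Onecut1 had 2, and Apob and Cps1 had 1 each. The strongest of Foxa2, at chr2:147895780-147896012, had 4.03 and 3.54 times the medians with 5 mismatches to the motif. None was nearest to Gata1, Tal1, Alb, Afp or Hnf4a.

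Few genes of the large clustered receptor families were the nearest gene of a member. Members were nearest to 9 of 1134 olfactory receptor genes (Olfr, 0.794%), with 15 members, and to 5 of 330 vomeronasal receptor genes (Vmn, 1.52%), with 10. The rule bears on these counts, since genes packed in clusters leave little sequence over 50 kb from a coding start. Of 397 Zfp genes, which encode zinc finger proteins, 35 had a member (8.82%), with 105 in all, close to the share of all coding genes. The 10 members of the Vmn genes had a median signal of 25.6, and 5 of them held a match.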

How the data were processed

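CTCF ChIP-seq peaks of 2 libraries were analysed. Per the deposited text files, the lists are narrowPeak tables on mm10, called against a control, with 300000 peaks for each replicate and an optimal (50909) and a conservative (49129) list thresholded by the irreproducible discovery rate. The name of the caller was not given in the sources used here. In the deposited files the signal is on the caller's relative scale. Reads per library are unknown, so precision is given by Wilson intervals and the replicates' SD.

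Summits were placed on GRCm38 (mm10) and GENCODE vM21 with Python 3.11.15, numpy 2.4.6, pandas 2.3.3 and scipy 1.17.1. A coding start is the start of a transcript of type protein_coding. The core CTCF motif was searched within 50 bp on both strands with at most 2 mismatches, and the search and the classes were tested on simulated data. Repeat masking is that of the reference. Relative signal is that of the replicate's peak within 100 bp divided by the median of its strongest 50909.

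The 10 strongest members, the 5 farthest, the 3 fullest intervals with their strongest peak, and genes of 3 lists and 3 families were named; some genes of the lists are not reported here. Members, lists and rule were chosen with earlier results of these data known. Alternatives were the conservative list, each replicate alone, stronger peaks, distances of 20 and 100 kb, and other motif, GC, pairing and overlap settings. The direction of motifs within intervals, the repeated word, all transcripts of coding genes and autosomes alone were added after the data were seen. The 21 optimal peaks on unplaced scaffolds were left out.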

Additional observations from a re-analysis of the deposited data

Results flagged for a closer look

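Of the 21 optimal peaks on unplaced scaffolds, which were left out of all comparisons, 9 would meet the same rule on the scaffold annotation. They were set aside because distances to genes end at the edge of a scaffold. Their signals ran from 5.86 to 507 with a median of 31.1. They are listed because they lie outside the comparisons. No control sample was analysed here, and on so short a sequence the distances in the rule are not measured in full, so the count is given as a value only.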

How the results depend on the processing

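Of 99 values recomputed under other settings, 57 moved by less than the replicates' SD (for presence in both replicates, stayed within the 95% interval), 41 moved by more and 1 changed direction. Values with 1 replicate left out are those of the other replicate, and the SD comes from the same values. A move smaller than the SD is thus partly built in for them. With 20 kb in place of 50 kb in the rule, the signal ratio to all other peaks was 1.03, a reversal; the share of peaks that were members was 17.6%, the density 7.85 per Mb, presence in both replicates 78.7%, masked summits 22.0%, the nearest peak 11.2 kb away, convergent pairs 21.9% and inward motifs 54.8%. With 100 kb the share was 5.04%, the density 3.41 per Mb, the signal ratio 0.771, presence in both replicates 72.5% and the nearest peak 28.9 kb. Above the median signal the density was 2.35 per Mb, the signal ratio 0.802, the motif share 90.0%, CpG matches 41.3%, presence in the conservative list 99.6% and in both replicates 99.5%, masked summits 14.03%, the nearest peak 27.1 kb, convergent pairs 18.6% and inward motifs 53.8%. In the conservative list, 82.6% were in both replicates and 53.2% of motifs pointed inward. With at most 1 mismatch the motif share was 49.9%, convergent pairs 18.0% and inward motifs 54.4%. With 3 they were 94.6% for the motif share and 53.8% for inward motifs, and the difference between distance classes was 2.00 points. The mean gave a signal ratio of 0.802. GC content was 51.5% within 50 bp and 45.5% within 250 bp. Convergent pairs from 50 kb apart made up 22.8%. With summits shared within 50 bp, 74.2% were in both replicates. Chosen after the data were seen, autosomes alone gave 5.86 per Mb, and without the repeated word 54.4% of motifs pointed inward.

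With 1 replicate left out, values ran from 0.858 to 0.919 for the signal ratio, 77.5 to 82.2% for the motif share, 20.02 to 21.3% for masked summits and 53.9 to 54.1% for inward motifs. No paired analysis was possible because the 2 libraries form 1 group and no groups of samples were compared; classes of peaks were set side by side within each library. Both came from 1 pooled biosample, read depth is unknown, and optimal signals are single values. The optimal and conservative lists were the only pooled lists analysed here, and the control and the repeat families were not analysed. No p-values were computed, so gaps between classes are read only against the intervals and the spread of 2 libraries.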
